A study of Mus musculus with 8 samples.

Results

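Peroxisomal fatty acid oxidation was followed through 8 genes, Ehhadh, Hsd17b4, Acaa1a, Acaa1b, Abcd2, Abcd3, Crot and Pex11a, which were taken from the table of 38283 genes by their symbols. All 8 were found, and all 8 were among the 11634 genes tested because their level exceeded 1 FPKM in at least 1 library (FPKM is the fragment count scaled by transcript length and by the size of the library). For 7 of them this held in every library, and for Abcd2 in 6 of 8. Livers came from male C57BL/6 mice with loxP sites around exons 4 and 5 of Rora in all 4 groups. RORα LKO mice also carried Cre recombinase driven by the albumin promoter, which deletes these exons in hepatocytes, and RORα f/f controls lacked it. A control diet (CD) or a high-fat diet (HFD) was given to each genotype for 10 weeks, starting at an age of 8 weeks. Each group had 2 RNA-seq libraries, each made from the livers of 2 mice combined, so that every p-value measures the spread between pools.

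Peroxisomes shorten fatty acids that mitochondria handle poorly, such as very long-chain, branched and dicarboxylic acids, and they complete the side-chain cleavage of bile acid precursors. Acyl-CoAs enter through ABCD transporters, an oxidase starts each round, a bifunctional enzyme hydrates and dehydrogenates the chain, and a thiolase releases acetyl-CoA. Shortened chains leave as carnitine esters for the mitochondria. In rodent liver several of these genes are classical targets of the nuclear receptor PPARα, and PEX11A takes part in the multiplication of the organelle.

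RORα binds DNA at the hexamer (A/G)GGTCA next to an A/T-rich stretch. PPARα with its partner RXR binds 2 copies of the hexamer placed 1 base apart. The hexamer was searched in the form AGGTCA only. The RefSeq promoter table for GRCm38.p6, a patch release of the build named for the deposited values, held windows for 6 of the 8 genes, with 2 for Abcd3. Each was read over the 250 bases before the annotated start, on both strands. Annotated exons covered all 250 bases of the Crot window, 151 of the second Abcd3 window, 113 of Acaa1a and 21 of Pex11a. AGGTCA was in none of the 7 windows, against 14% of 32851 promoter windows of the same length. Nor did any of the 7 hold the pair of hexamers 1 base apart with up to 2 mismatches, which was present in 3.24% of all windows (0.0335% with no mismatch). This says only that these letters are not in these windows. The single hexamer GGGTCA was not counted, and the Ehhadh and Pex11a windows hold it on the other strand, as tgaccc. The 3 windows that overlap no annotated exon are shown. Among the enzymes, Ehhadh and Acaa1b had the largest ratios of mean FPKM on HFD, RORα LKO over RORα f/f (1.68 and 1.58). Abcd3 differed less than the other transporter. The windows read 5′ to 3′ toward the start site, and capitals would mark AGGTCA on either strand.
Ehhadh, chr16:21787835-21788084, minus strand: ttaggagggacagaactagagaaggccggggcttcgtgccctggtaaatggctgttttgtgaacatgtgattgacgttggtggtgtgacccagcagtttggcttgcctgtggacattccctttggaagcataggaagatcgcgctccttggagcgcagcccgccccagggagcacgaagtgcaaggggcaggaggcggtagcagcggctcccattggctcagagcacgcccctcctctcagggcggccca
Acaa1b, chr9:119157094-119157343, minus strand: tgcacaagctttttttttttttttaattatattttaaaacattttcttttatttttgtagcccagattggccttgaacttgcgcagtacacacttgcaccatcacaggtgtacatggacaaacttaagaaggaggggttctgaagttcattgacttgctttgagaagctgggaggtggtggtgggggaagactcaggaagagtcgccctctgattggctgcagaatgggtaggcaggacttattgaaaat
Abcd3, chr3:121815303-121815552, minus strand: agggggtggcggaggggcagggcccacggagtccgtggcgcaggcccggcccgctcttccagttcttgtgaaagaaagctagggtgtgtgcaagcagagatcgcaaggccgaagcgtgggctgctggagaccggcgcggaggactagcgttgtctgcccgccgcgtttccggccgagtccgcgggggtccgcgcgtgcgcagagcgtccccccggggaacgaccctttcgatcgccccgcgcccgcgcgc

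The 8 libraries each had between 10587 and 10706 genes above 1 FPKM. The files hold no read counts, so no counting interval is given. Rora (chromosome 9, 68653786 to 69388246, plus strand) had 8.85 and 8.59 FPKM in CD-fed RORα f/f libraries, 7.96 and 8.18 in CD-fed RORα LKO, 7.56 and 7.86 in HFD-fed RORα f/f and 7.30 and 8.02 in HFD-fed RORα LKO. Its log2 difference on HFD was 0.01 (SE 0.07, limma adjusted p = 0.974). The value covers the whole gene, of which the deleted exons are a small part, so it does not check the deletion, and LKO and f/f name libraries by their labels here. Of 6 hepatocyte markers, Ttr, Apoa1, Apob, Tat and Cps1 were at 250 FPKM or more in every library, whereas Alb was listed at 0 in 4 libraries and between 29900 and 30900 FPKM in the rest, so that a listed 0 can be a failed estimate. No peroxisomal member was listed at 0. One library stood apart for the members, the second CD-fed RORα LKO library, which was the highest of all 8 libraries for Ehhadh, Acaa1b, Abcd3 and Pex11a. Values without it are given for several of the comparisons that use it. Levels in whole liver cannot tell a change in the number of expressing cells from a change in RNA per cell.

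**Figure D1:**
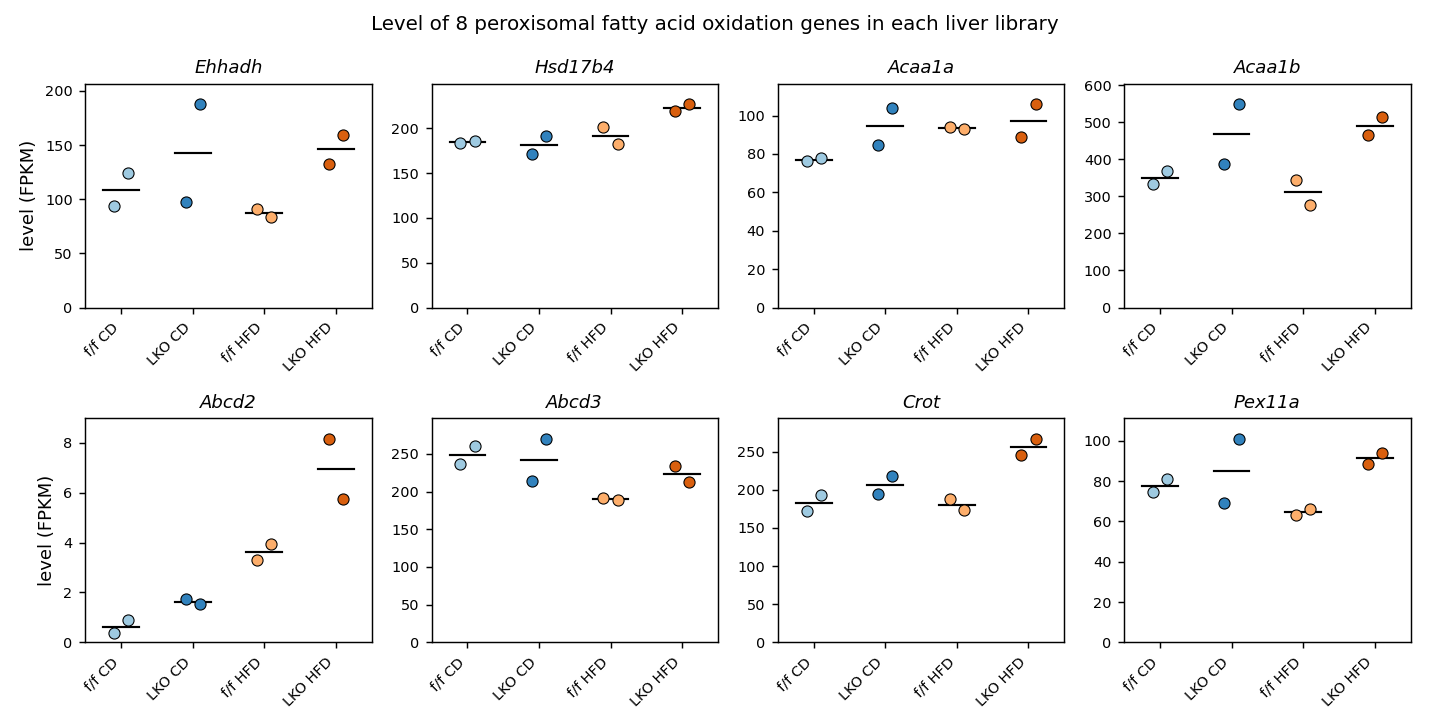
FPKM of each of the 8 genes (y axis, from 0) in each library (points), by group on the x axis; horizontal bars are the mean of the 2 libraries. On HFD both RORα LKO libraries sat above both RORα f/f libraries for every gene except Acaa1a, and the 4 groups of Abcd2 did not overlap, from 0.369 to 8.16 FPKM.

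Since FPKM is scaled by transcript length, levels can be set side by side. Acaa1b was the most abundant, with a median of 377 FPKM over the 8 libraries, followed by Abcd3 (224), Crot (194) and Hsd17b4 (189). Ehhadh (111), Acaa1a (90.7) and Pex11a (77.7) came next. Abcd2 was far below, with a median of 2.52. This order was not the same in every group. In HFD-fed RORα LKO libraries Crot (246 and 267) exceeded Abcd3 (234 and 213), and in HFD-fed RORα f/f libraries Acaa1a (94.0 and 92.8) exceeded Ehhadh (90.6 and 84.0). The medians of Crot and Hsd17b4 differed by less than the range of either gene over the libraries, 172 to 267 FPKM and 171 to 227. The highest library exceeded the lowest 1.33-fold for Hsd17b4, 1.39-fold for Acaa1a, 1.43-fold for Abcd3, 1.55-fold for Crot and 1.59-fold for Pex11a. The corresponding ratios were 1.99 for Acaa1b, 2.23 for Ehhadh and 22.1 for Abcd2.

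On HFD, where deletion of RORα was set against its floxed control, the levels of all 8 genes had a higher mean in RORα LKO liver, and for 7 of 8 both RORα LKO libraries lay above both RORα f/f libraries. Such separation upward held for 19.1% of all genes tested. The median log2 difference of the 8 genes was 0.55, and that of all genes tested was 0.00 (−0.000673). Log2 differences are RORα LKO minus RORα f/f on the quantile-normalised log2(FPKM + 1) scale. No member passed a limma adjusted p of 0.05 over all genes, which 0.043% of genes did (5 genes). At an unadjusted limma p under 0.05, 6 of the 8 were higher, against 5.46% of all genes, and none was lower. A second call rule was built after the study's methods, which combine the p-values of a T-statistic and of a fold change, both set against regroupings of the libraries. The version used here differs from those methods in that it leaves the p-values unadjusted, draws fewer regroupings and estimates its own fold cutoff, and it is called the permutation rule. It called 5 of the 8 higher, Ehhadh, Acaa1b, Abcd2, Crot and Pex11a, against 2.12% of all genes. An exact permutation test of 2 libraries against 2 cannot go below p = 0.333 (two-sided).

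Crot, carnitine O-octanoyltransferase, which makes the carnitine esters that carry shortened chains out of the peroxisome, showed the smallest p of the 8 genes on HFD. Its gene lies on chromosome 5 (8966033 to 8997324, minus strand). HFD-fed RORα f/f libraries had 188 and 173 FPKM, and HFD-fed RORα LKO libraries had 246 and 267 FPKM. The groups did not overlap, and the gap between them was wider than that between the libraries of either. The ratio of the means was 1.42 and the log2 difference 0.58 (SE 0.10, 95% interval 0.35 to 0.81, limma adjusted p = 0.161). On CD the libraries had 172 and 193 FPKM in RORα f/f and 195 and 218 in RORα LKO, again without overlap but with a log2 difference of 0.18 (95% interval −0.05 to 0.41, limma adjusted p = 0.495). The difference was larger on HFD than on CD by 0.40 (95% interval 0.07 to 0.72, limma adjusted p = 0.558).

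Of the bifunctional enzymes, Ehhadh encodes the L-specific protein, which acts on straight-chain and dicarboxylic substrates (chromosome 16, 21761287 to 21787807, minus strand). On HFD it had 90.6 and 84.0 FPKM in RORα f/f and 133 and 159 FPKM in RORα LKO libraries. The groups were separated by more than the gap within either of them. The ratio of the means was 1.68 and the log2 difference 0.77 (SE 0.28, limma adjusted p = 0.450). On CD the libraries had 94.0 and 124 FPKM in RORα f/f and 97.5 and 188 FPKM in RORα LKO. The groups overlapped, and the 2 CD-fed RORα LKO libraries differed by 0.90 on the log2 scale, a gap larger than that of 98.5% of genes. The log2 difference on CD was 0.32 (95% interval −0.34 to 0.99, limma adjusted p = 0.660), and −0.13 without the second CD-fed RORα LKO library. The Ehhadh window shown above held no AGGTCA but held the form GGGTCA on the other strand.

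Hsd17b4 encodes the D-specific bifunctional protein, which takes branched chains and bile acid precursors as well as straight ones. It is annotated on chromosome 18 (50128201 to 50196269, plus strand). Its HFD-fed RORα f/f libraries had 201 and 182 FPKM and its HFD-fed RORα LKO libraries 219 and 227 FPKM. These did not overlap, yet the ratio of the means was 1.16 only, with a log2 difference of 0.25 (SE 0.08, limma adjusted p = 0.382). Its CD-fed libraries had 184 and 186 FPKM in RORα f/f and 171 and 191 FPKM in RORα LKO libraries, which overlapped, and the log2 difference was −0.03 (95% interval −0.22 to 0.16). The genotype difference was larger on HFD than on CD by 0.28 (95% interval 0.01 to 0.55, limma adjusted p = 0.588).

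The thiolases Acaa1a and Acaa1b cleave the last intermediate of each round. Both lie on chromosome 9, Acaa1a at 119339676 to 119350299 (plus strand) and Acaa1b at 119148023 to 119157093 (minus strand), and their transcripts share sequence. Of all stretches of 50 bases in the longest coding transcript, 34% of those of Acaa1a and 35.5% of those of Acaa1b are also in a transcript of the other. How reads that match both were divided between them is not known, so the split is uncertain. Acaa1b had 345 and 276 FPKM in HFD-fed RORα f/f and 465 and 513 FPKM in HFD-fed RORα LKO libraries, without overlap. The ratio of the means was 1.58 and the log2 difference 0.68 (SE 0.21, limma adjusted p = 0.371). Acaa1a had 94.0 and 92.8 FPKM in HFD-fed RORα f/f and 88.6 and 106 FPKM in HFD-fed RORα LKO libraries. It was the only member whose groups overlapped on HFD, with a log2 difference of 0.07 (95% interval −0.19 to 0.32, limma adjusted p = 0.884).

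On CD both thiolases also lay higher in the RORα LKO libraries. Acaa1b had 332 and 368 FPKM in RORα f/f and 387 and 549 FPKM in RORα LKO libraries, and Acaa1a 76.1 and 77.8 against 84.7 and 104 FPKM. Neither overlapped between the genotypes, with log2 differences of 0.43 (95% interval −0.08 to 0.93, limma adjusted p = 0.470) and 0.29 (95% interval 0.04 to 0.55, limma adjusted p = 0.349). Without the second CD-fed RORα LKO library they were 0.12 for Acaa1b and 0.15 for Acaa1a. Their summed FPKM, which can still depend on how shared reads were handled, was 408 and 446 in CD-fed RORα f/f and 471 and 654 in CD-fed RORα LKO libraries. On HFD the sum was 439 and 369 in RORα f/f and 553 and 619 in RORα LKO libraries. The summed level was thus separated between genotypes on both diets. Acaa1b made up 74.8% to 84% of the sum, and the lowest shares, 78.6% and 74.8%, were found in HFD-fed RORα f/f liver.

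Of the transporters, Abcd3 (PMP70, which takes up branched and dicarboxylic acyl-CoAs and bile acid precursors) lies on chromosome 3 (121758774 to 121815302, minus strand). It had 192 and 189 FPKM in HFD-fed RORα f/f and 234 and 213 FPKM in HFD-fed RORα LKO libraries, without overlap. The log2 difference was 0.26 (95% interval −0.01 to 0.54, limma adjusted p = 0.544). On CD its libraries had 236 and 261 FPKM in RORα f/f and 214 and 270 FPKM in RORα LKO, one RORα LKO library lying below and one above both controls. The HFD-fed RORα LKO libraries thus lay within or below the CD-fed range, between 213 and 234 FPKM.

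Abcd2 encodes a transporter of very long-chain and polyunsaturated acyl-CoAs (chromosome 15, 91145871 to 91191799, minus strand). Its levels were 0.369 and 0.882 FPKM in CD-fed RORα f/f, 1.74 and 1.52 in CD-fed RORα LKO, 3.29 and 3.96 in HFD-fed RORα f/f and 8.16 and 5.75 in HFD-fed RORα LKO libraries. No group overlapped another. Between the genotypes the ratio of the means was 1.92 on HFD and 2.61 on CD, and the log2 differences, which understate the change of a gene this low, were 0.78 (SE 0.21, limma adjusted p = 0.328) and 0.69 (SE 0.21, limma adjusted p = 0.288). Over both diets together the log2 difference was 0.73 (95% interval 0.38 to 1.09, limma adjusted p = 0.131). Because Abcd2 passed the filter only through the groups in which it was higher, the median on HFD was also taken over the 7 other genes, which gave 0.53.

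Pex11a, the peroxin of peroxisome elongation and division that responds to PPARα ligands, lies on chromosome 7 (79735957 to 79743131, minus strand). On HFD it had 63.4 and 66.2 FPKM in RORα f/f and 88.7 and 94.0 FPKM in RORα LKO libraries. The gap between the groups was wider than that within either. The ratio of the means was 1.41 and the log2 difference 0.53 (SE 0.15, limma adjusted p = 0.342). Its CD-fed libraries had 74.4 and 80.9 FPKM in RORα f/f and 69.0 and 101 FPKM in RORα LKO libraries, which overlapped, with a log2 difference of 0.11 (95% interval −0.26 to 0.47) that was −0.15 without the second CD-fed RORα LKO library.

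**Figure D2:**
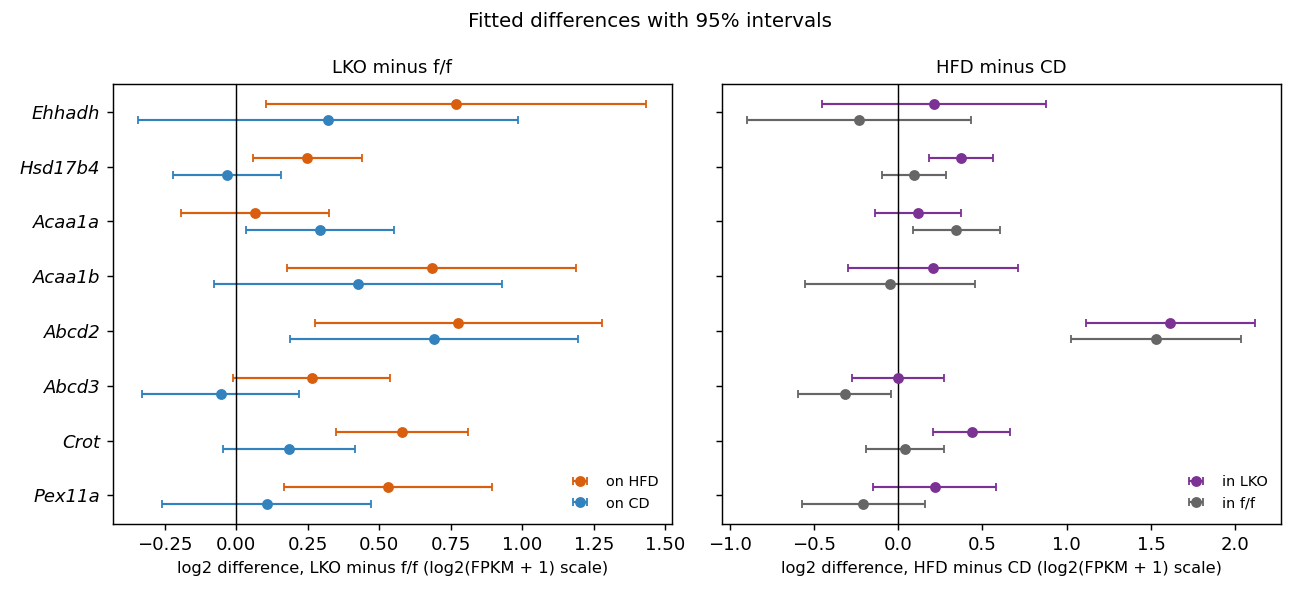
Fitted log2 differences (x axis, log2(FPKM + 1) scale) of the 8 genes (y axis) with 95% intervals as bars, RORα LKO minus RORα f/f on each diet at the left and HFD minus CD in each genotype at the right. On HFD the genotype difference ran from 0.07 for Acaa1a to 0.78 for Abcd2, and the diet difference of Abcd2, 1.53 and 1.61, stood apart from the other 7.

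The calls on HFD rested on few libraries. Without any 1 of the HFD-fed libraries, fewer of the 8 genes kept an unadjusted limma p under 0.05 than in the fit of all libraries. The median log2 difference stayed between 0.52 and 0.58 in these fits and in those without a CD-fed library. Crot was below this p in every one of them. The permutation rule lost Pex11a without normalisation, at a log2 difference of 0.4889 against a cutoff of 0.489, and it lost Acaa1b, Crot and Pex11a when 0.1 rather than 1 was added before the logarithm. With 0.1 added, their differences of 0.68, 0.58 and 0.54 were about as large as before, while the cutoff, which is estimated from all genes, was 0.721 in place of 0.488.

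Macrophage markers moved with the genotype on HFD. All 8 (Adgre1, Clec4f, Cd68, Marco, Csf1r, Cd5l, Vsig4, Lyz2) had a higher mean in RORα LKO libraries, with a median log2 difference of 0.39, and none passed an adjusted p of 0.05 with limma (2 did at an unadjusted p under 0.05). Their summed FPKM was 97.7 and 80.0 in RORα f/f and 146 and 94.8 in RORα LKO libraries, which overlapped. Of 7 adipocyte markers, 3 were tested and all had a higher mean on HFD in RORα LKO libraries. Car3, which hepatocytes also express, had 1050 and 825 against 1410 and 1750 FPKM, and Cfd had 0.488 and 1.87 against 5.45 and 5.29 FPKM. The defining markers Adipoq and Lep were at 0 in both HFD-fed RORα LKO libraries and Plin1 at 0.0189 and 0.0197 FPKM. In HFD-fed RORα f/f libraries Adipoq had 0.377 and 0.212 FPKM, Lep 0.0227 and 0, and Plin1 0.0537 and 0. A listed 0 can be a failed estimate, as said for Alb. Endothelial and stellate markers had medians of 0.01 and 0.05. The part of these cells in the members' differences was not tested.

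On CD, 6 of the 8 genes had a higher mean in RORα LKO libraries, and the groups were separated upward for 4, Acaa1a, Acaa1b, Abcd2 and Crot. Such separation held for 20.8% of all genes, and Abcd2 is not set against this share, for the reason given below. The median log2 difference was 0.24. No member passed an adjusted limma p of 0.05, which 0.0172% of genes did. At an unadjusted p under 0.05, 2 of 8 were higher (Acaa1a and Abcd2), against 6.15% of all genes. The permutation rule called 1 of 8, Abcd2, against 2.27%. Both CD-fed RORα f/f libraries of Abcd2 were under 1 FPKM, so that it was tested on CD only through groups in which it was higher. With 1 FPKM required in all libraries, which leaves Abcd2 out, 5 of 7 had a higher mean and the median was 0.18. At an unadjusted limma p under 0.05 the count was then 1 of 7 (against 6.66%), and the permutation rule called 0 of 7. Without the second CD-fed RORα LKO library the median was 0.01 in place of 0.24, 4 of 8 genes had a higher mean and 1 had an unadjusted p under 0.05 (against 5.38% of all genes). Without the first CD-fed RORα LKO library all 8 had a higher mean, and 4 had an unadjusted p under 0.05 (against 6.03%). The 2 libraries of this group thus gave different answers for Ehhadh, Acaa1b and Pex11a, whose levels in the second exceeded those in the first by 0.90, 0.62 and 0.51 on the log2 scale.

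The difference between the genotypes was compared across the diets by an interaction term. For 7 of the 8 genes, all but Acaa1a, it was larger on HFD than on CD, with a median of 0.30 and a range from −0.23 to 0.45. For Abcd2 this depended on the log2(FPKM + 1) scale, since its ratio of the means was smaller on HFD (1.92) than on CD (2.61). With 0.1 rather than 1 added before the logarithm, 6 of the 8 were larger on HFD. At an unadjusted limma p under 0.05, 2 of 8 were larger on HFD (Crot and Hsd17b4), against 4.35% of all genes. None passed an adjusted p of 0.05, which 0.0344% of genes did, and the lowest adjusted p was 0.558. The count of 2 depended on single libraries and changed in both directions when 1 was left out. The median was 0.46 without the second CD-fed RORα LKO library and 0.15 without the first. With 1 library left out in turn, the interaction ran from 0.28 to 0.50 for Crot and from 0.20 to 0.37 for Hsd17b4. For Ehhadh it ran from −0.00 (−0.0007191) to 0.90 and for Pex11a from 0.17 to 0.67. Without normalisation or without the variance trend the count was 1 (against 3.84% and 4.27% of all genes). Macrophage markers also had a larger genotype difference on HFD in 8 of 8, with a median of 0.58 (2 at an unadjusted limma p under 0.05, none adjusted), as did the 3 tested adipocyte markers, with a median of 0.72. Their part in the members' values was not tested.

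With the diets averaged, 5 of the 8 genes were higher in RORα LKO at an unadjusted p under 0.05 (Ehhadh, Acaa1b, Abcd2, Crot and Pex11a), against 7.18% of all genes, and none at an adjusted p, against 0.103%. The count was lower in some of the fits that left out 1 library and higher without the first CD-fed RORα LKO library. With 1 library left out in turn, the log2 difference ran from 0.32 to 0.77 for Ehhadh and from 0.19 to 0.44 for Pex11a. Both were lowest without the second CD-fed RORα LKO library. In the fit of all libraries the lowest limma adjusted p was that of Crot, 0.108, with a log2 difference of 0.38 (95% interval 0.22 to 0.54).

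**Figure D3:**
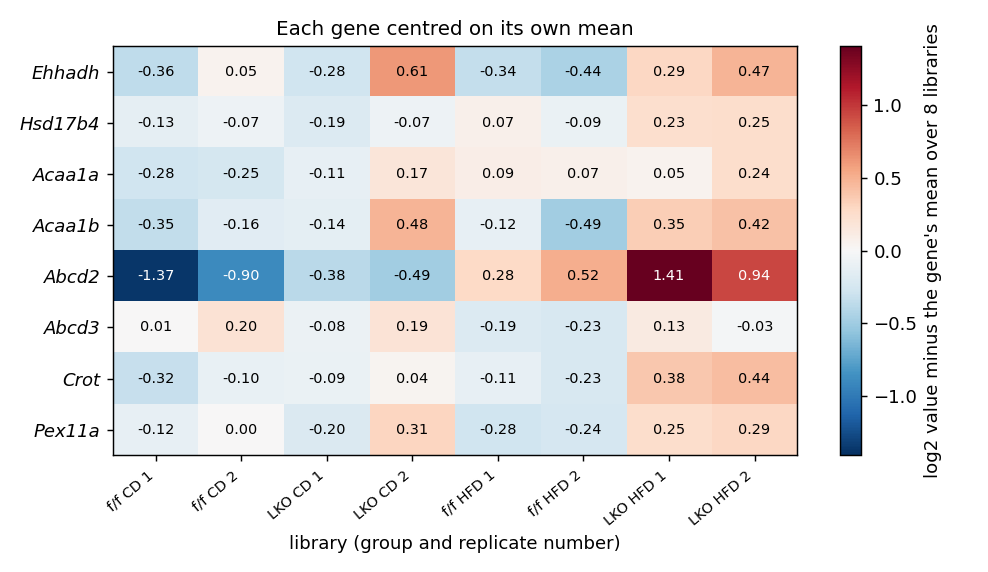
Quantile-normalised log2(FPKM + 1) values of each gene (rows) in each library (columns) after subtraction of the gene's mean over the 8 libraries; the colour and the printed number give the same value. Both HFD-fed RORα LKO libraries were above the mean for every gene except Abcd3, at 0.13 and −0.03, and the second CD-fed RORα LKO library reached 0.61 for Ehhadh.

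The comparisons of the diets use the same libraries as those of the genotypes and are therefore no separate evidence. Of the 8 genes Abcd2 differed most by diet. Its mean on HFD was 5.79-fold that on CD in RORα f/f and 4.26-fold in RORα LKO liver. The log2 differences were 1.53 (SE 0.21, limma adjusted p = 0.0373) and 1.61 (SE 0.21, limma adjusted p = 0.0194), and over both genotypes 1.57 (SE 0.15, limma adjusted p = 0.00433). All 4 HFD-fed libraries lay above all 4 CD-fed libraries. The response did not differ detectably between genotypes, with an interaction of 0.08 (95% interval −0.63 to 0.80, limma adjusted p = 0.95). The rise over both genotypes kept an adjusted p between 0.00124 and 0.0253 in every alternative that tested Abcd2. Within RORα f/f the adjusted p exceeded 0.05 when any 1 library of the 8 was left out (0.0642 to 0.155). Within RORα LKO it did so without any 1 of the 4 RORα LKO libraries, reaching 0.125 without the second CD-fed one, and the call was also lost without the first HFD-fed RORα f/f library (0.05). Without the filter on low values both were above 0.05 (0.0798 and 0.0523), and without the variance trend the value in RORα f/f was 0.0546. In RORα f/f liver Abcd2 passed the filter only through the HFD-fed libraries, so that its call there is not set against the share of all genes.

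Markers of other cell types also differed by diet. All 6 endothelial markers were higher on HFD over both genotypes, and Lyve1 (0.76), the stellate marker Dcn (0.78) and the adipocyte marker Fabp4 (0.37) passed with limma (adjusted p = 0.0213, 0.0283 and 0.0332). All 8 macrophage markers were lower on HFD in RORα f/f, with a median of −0.33, and higher in RORα LKO, with a median of 0.22, none at an adjusted limma p under 0.05 and 1 at an unadjusted p, in RORα f/f. Their part in the members' values was not tested.

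Of the remaining genes, Hsd17b4 rose on HFD over both genotypes, with a log2 difference of 0.23 (SE 0.06, limma adjusted p = 0.0493). This call was lost without normalisation (0.107), without the filter (0.0770), without the variance trend (0.0731) and when any 1 library was left out (0.0578 to 0.133). In RORα LKO liver both HFD-fed libraries of Hsd17b4 and of Crot lay above both CD-fed libraries, with log2 differences of 0.37 (limma adjusted p = 0.0595) and 0.44 (limma adjusted p = 0.0655). Both passed with 1 FPKM required in all libraries (limma adjusted p = 0.0375 and 0.0368). They also passed without genes listed at 0 (0.0452 and 0.0454), an alternative added after the data were seen. Neither passed with any other setting of all 8 libraries, and without normalisation the values were 0.103 and 0.133. With 1 library left out in turn, the log2 differences ran from 0.31 to 0.43 for Hsd17b4 and from 0.36 to 0.50 for Crot. In RORα f/f liver the differences were 0.09 and 0.04, with overlapping libraries. Acaa1a was separated upward by diet in RORα f/f, 76.1 and 77.8 FPKM on CD against 94.0 and 92.8 FPKM on HFD, with a log2 difference of 0.35 (limma adjusted p = 0.161).

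In RORα f/f liver 3 of the 8 genes, Ehhadh, Abcd3 and Pex11a, had both HFD-fed libraries below both CD-fed libraries, against 27.6% of all genes. The opposite order held for 22.3% of all genes, and Acaa1a was among them. It also held for Abcd2, which is not set against this share because in RORα f/f it passed the filter only through the HFD-fed libraries. The log2 differences of Ehhadh, Abcd3 and Pex11a were −0.23, −0.32 and −0.21, and that of Abcd3 had the smallest p (limma adjusted p = 0.207). In RORα LKO liver these 3 genes differed by 0.21, −0.00 (−0.00023) and 0.22 between the diets, with overlapping libraries. These values depended on which CD-fed RORα LKO library was used. Without the second, Ehhadh, Abcd3 and Pex11a differed by 0.66, 0.14 and 0.47. Without the first they differed by −0.23, −0.13 and −0.04. In the fit of all libraries, 3 of the 8 genes were higher on HFD in RORα LKO at an unadjusted limma p under 0.05, against 11.7% of all genes. The share of genes separated upward by diet in RORα LKO was 22.9%, and 3 of the 8 genes were among them (Hsd17b4, Abcd2 and Crot). Adjusted calls by diet were made for 1.33% of genes in RORα f/f and 3.02% in RORα LKO liver. The only member called in either was Abcd2, whose call in RORα f/f is not set against the share there, for the same reason. Over both genotypes 5.04% of genes rose and 4.86% fell, and of the 8 genes 2 rose and none fell.

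The other 24 listed genes of peroxisomal β-oxidation, 21 of which were tested, had a median log2 difference between genotypes on HFD of 0.13, with 18 higher and 3 lower and none past an adjusted limma p of 0.05. At an unadjusted p under 0.05, 6 were higher and 2 lower, and on CD 2 were higher. Crat, carnitine O-acetyltransferase, which acts on the acetyl end product beside Crot, had 24.3 and 19.4 FPKM in HFD-fed RORα f/f and 40.8 and 39.6 FPKM in HFD-fed RORα LKO libraries. Its log2 difference of 0.88 (SE 0.18, limma adjusted p = 0.228) was larger than that of any member. Lonp2, the peroxisomal protease, differed by 0.24 and Acot8, a peroxisomal thioesterase, by 0.34 (limma adjusted p = 0.350 and 0.470). By diet over both genotypes, 4 of the 21 rose and 2 fell at an adjusted p under 0.05. Acox2, the oxidase of bile acid precursors, rose by 0.54 and Lonp2 by 0.34, while Nudt7, a hydrolase of coenzyme A, fell by 1.02 (limma adjusted p = 0.00612, 0.0119 and 0.00515).

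Genes of other peroxisomal functions were nearer to 0 on HFD between the genotypes. The 15 tested of 17 other matrix enzymes had a median of −0.02 and the 18 genes of peroxisome biogenesis and division −0.01, and none passed an adjusted limma p of 0.05. At an unadjusted p under 0.05, 1 matrix gene was higher and 1 lower, and 2 biogenesis genes were higher and 1 lower. The genes with the lowest p by genotype over both diets were Paox, a polyamine oxidase, Gstk1, a glutathione transferase, and Pipox, which oxidises pipecolic acid, with differences over both diets of −0.28, 0.25 and −0.15. Among the biogenesis genes they were Pex14, Pex5 and Pex2, at 0.20, 0.17 and −0.14. The peroxins Pex14 and Pex5 serve import of matrix proteins, and Pex2 recycling of the import receptor. By diet over both genotypes, Gstk1 rose by 0.42 and Pipox by 0.29, and Paox fell by 0.54 and Agps, an enzyme of ether lipid synthesis, by 0.49 (limma adjusted p = 0.0106, 0.0226, 0.0139 and 0.0221). None of the 18 biogenesis genes passed with limma, 3 were higher at an unadjusted p under 0.05, and the smallest p were those of Pex10 (0.27, adjusted p = 0.0770), Pex7 (0.17) and Pex6 (0.17).

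The 16 mitochondrial β-oxidation genes had a median log2 difference on HFD of 0.20 between genotypes, with 15 higher, 7 of them at an unadjusted limma p under 0.05, and none past the adjusted threshold. The values ran from −0.07 to 0.32, below the median of 0.55 of the 8 peroxisomal genes, and the difference of the 2 lists was not tested. Hadh, a mitochondrial dehydrogenase of the pathway, had 174 and 180 FPKM in RORα f/f and 205 and 223 FPKM in RORα LKO libraries on HFD. Cpt2, of the carnitine shuttle, and Acads, the short-chain dehydrogenase, differed by 0.26 and 0.09. By diet 8 of 16 rose over both genotypes, among them Acadm by 0.64, Etfdh by 0.48 and Acadl by 0.43 (limma adjusted p = 0.00809, 0.00714 and 0.00586), against 2 of the 8 peroxisomal genes.

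**Figure D4:**
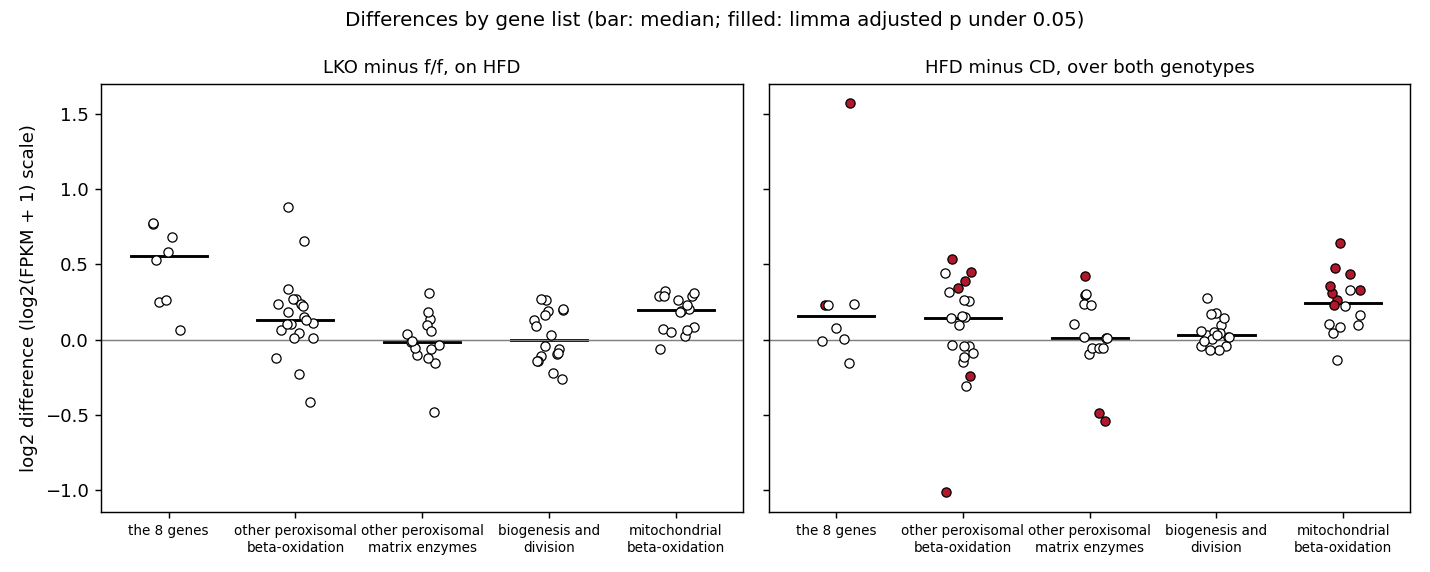
Log2 differences (y axis, log2(FPKM + 1) scale) of the tested genes of each list (x axis), RORα LKO minus RORα f/f on HFD at the left and HFD minus CD over both genotypes at the right; bars are medians and filled points passed a limma adjusted p of 0.05. No point is filled at the left, where the medians run from −0.02 to 0.55, and at the right 2 of the 8 genes and 8 of the 16 mitochondrial genes are filled.

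When each gene was centred and scaled to an SD of 1 over the 8 libraries and the 8 profiles were averaged, the mean profile was highest in the HFD-fed RORα LKO libraries (0.998 and 1.08 SD units) and next in the second CD-fed RORα LKO library (0.656). It was lowest in the first CD-fed RORα f/f library (−0.882). Crot lay nearest to this mean, with a root mean square difference of 0.335 SD units, followed by Acaa1b (0.350), Ehhadh (0.408) and Pex11a (0.418). Abcd3 (0.879), Abcd2 (0.731) and Acaa1a (0.682) lay farthest from it. Outside the 8 genes, the nearest tested genes included Plin5 (0.287), Ppm1k (0.338), Crat (0.339), Acot8 (0.349), Vwa8 (0.356), Akap1 (0.366) and Bhlhb9 (0.367), where the median of all genes was 1.18. Plin5, a lipid droplet protein of oxidative tissues, had 17.1 and 18.1 FPKM in HFD-fed RORα f/f and 25.3 and 25.7 FPKM in HFD-fed RORα LKO libraries. The likeness rests on 8 libraries that share their groups and is a description with no test.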

How the data were processed

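Poly(A) RNA from liver was sequenced in 8 libraries. The authors removed adapters and trimmed reads with cutadapt 1.0, aligned them to GRCm38 with TopHat2 2.0.7 and estimated expression with Cufflinks, whose version and gene annotation are not given in the sources used here, and deposited FPKM per gene. Genes were matched to symbols by Ensembl identifier (36341 of 38283) and to positions in GENCODE M21.

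The filter required 1 FPKM in at least 1 library. After addition of a pseudocount of 1, log2 values were quantile normalised. Groups were compared with limma 3.58.1 in R 4.3.3, in 1 fit of the 4 groups with a mean-variance trend (4 residual and 2.8 prior degrees of freedom) and Benjamini-Hochberg adjustment over all genes. The permutation rule follows the study's methods with differences: 100 of 210 regroupings were drawn, which is fewer, p-values were combined by Stouffer's method (at most 0.05) without the adjustment those methods name, and the log2 cutoff, 0.488, was estimated anew. Figures were drawn with matplotlib 3.10.9. The steps were tested on simulated data.

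Same-numbered libraries of different groups deviated with Pearson's r between −0.00371 and 0.149, so that the numbers do not pair the libraries. Alternatives were no normalisation, a pseudocount of 0.1, other filters, a replicate block, no trend, another seed, each library left out and, added after the data were seen, leaving out genes listed at 0. The genes and lists were chosen with earlier results of these data known. Named genes are the 8 members, in each list the 3 genes with the lowest p by genotype and by diet, the 8 nearest profiles (1 of them is not reported here), Rora and markers that moved.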

Additional observations from a re-analysis of the deposited data

How the results depend on the processing

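No direction that had passed its test was turned by any alternative. The members' median log2 difference on HFD stayed between 0.49 and 0.58. Leaving out 1 library in turn gave medians from 0.52 to 0.58 for genotype on HFD, 0.0138 to 0.397 on CD, 0.15 to 0.46 for the interaction and 0.26 to 0.43 over both diets. For diet they ran from −0.108 to 0.115 in RORα f/f, −0.0308 to 0.483 in RORα LKO and 0.05 to 0.25 over both genotypes. The permutation rule called 444 genes on HFD and 511 on CD. It called 2 members on HFD with a pseudocount of 0.1 in place of 5 (Ehhadh and Abcd2), 4 without normalisation and 5 with another seed, and 0 on CD with 1 FPKM required in all 8 libraries, which leaves out Abcd2.

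Numbers of genes past an adjusted limma p of 0.05, over all genes, depended on the filter and the variance model, and the cause was not tested. They are given here beside 5 for genotype on HFD, 2 on CD, 4 for the interaction and 12 over both diets, and 155, 351 and 1151 for diet in RORα f/f, in RORα LKO and over both. Leaving out 1 library gave 4 to 21, 2 to 19, 10 to 21, 13 to 30, 14 to 49, 21 to 154 and 374 to 816 in that order. Without normalisation 7 genes passed for genotype over both diets. A pseudocount of 0.1 gave 1 on CD and 2 for the interaction. With 1 FPKM in all libraries the numbers were 7 on CD, 0 for the interaction, 50 over both diets, 323 for diet in RORα f/f and 570 in RORα LKO. With no filter they were 24, 10, 19 and 28 for genotype on HFD, on CD, the interaction and both diets, and 46, 135 and 704 for diet. Without the trend they were 4 on CD, and 42 and 229 for diet in RORα f/f and RORα LKO. Leaving out genes listed at 0, chosen after seeing the data, gave 13 on CD, 0 for the interaction, 37 over both diets, and 299 and 551 for diet in RORα f/f and RORα LKO.

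With the replicate block 34 genes passed for diet in RORα f/f and 223 in RORα LKO. Of the members' calls, the block left Abcd2 by diet over both genotypes (adjusted p = 0.0100 with limma) and in RORα LKO (0.0380), and gave 0.0630 in RORα f/f and 0.0783 for Hsd17b4. The interaction count of members at an unadjusted limma p under 0.05 was 1 in place of 2, against 4.16% of all genes. FPKM without counts and 2 pools a group limit what can be resolved, and Abcd2, under 1 FPKM in CD-fed RORα f/f liver, had the widest relative spread between libraries there.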
